A study of Rattus norvegicus with 6 samples.

Results

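The genes of respiratory complex I were followed in primary rat microglia stimulated with LPS, with or without siponimod. All genes whose name in the count tables starts with Ndufa, Ndufb, Ndufc, Ndufs or Ndufv and a digit, together with Ndufab1, were taken as nuclear-encoded members, and all genes whose name starts with Mt-nd as mitochondrially encoded ones. This gave 40 nuclear and 7 mitochondrial genes, 47 of the 23139 genes listed. Of the nuclear genes, 37 are counted as genes of complex I subunits, among them 2 loci each under the names Ndufa10l1, Ndufb2 and Ndufs5. The other 3 were taken by name only, namely Ndufa4, whose protein is now assigned to complex IV, its paralog Ndufa4l2, and the pseudogene Ndufv3-ps1. Ndufs6, Ndufb1 and Ndufb9 were not analysed here.

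Complex I (NADH:ubiquinone oxidoreductase) takes electrons from NADH, passes them along a chain of iron-sulfur clusters in its matrix arm to ubiquinone, and pumps protons across the inner mitochondrial membrane with its membrane arm. The matrix arm, with the NADH-binding N module and the ubiquinone-reducing Q module, is made from nuclear genes alone, whereas the core of the membrane arm is encoded in mitochondrial DNA, so that transcripts of both genomes are needed for 1 enzyme. In macrophages and microglia, activation by LPS is known for a shift of energy metabolism away from respiration and towards glycolysis.

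Bulk mRNA of 6 libraries was sequenced, with 3 biological replicates per condition. The microglia came from cortices of Wistar rats at postnatal day 1, were shaken off mixed cultures and purified with magnetic beads against CD11b/c. All libraries received LPS at 100 ng/mL, together with DMSO as the vehicle (LPS) or with 50 µM siponimod, a modulator of sphingosine 1-phosphate receptors (LPS/siponimod). The number of animals behind a replicate is not given in the labels. Cells without LPS were not analysed here, and all comparisons are of LPS/siponimod with LPS.

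Depth was 39484979, 38301365 and 38080379 counts in LPS replicates 1, 2 and 3 and 46643859, 43336006 and 38857441 counts in LPS/siponimod replicates 1, 2 and 3. Levels are given as CPM, that is counts relative to the library size after TMM scaling. They are not divided by gene length, so that levels of different genes are not ranked. Genes were called differentially expressed (DEGs) where edgeR's quasi-likelihood test, adjusted over all 11977 genes tested (the edgeR adjusted p), gave 0.05 or less and levels differed by 1.5-fold or more. Each log2 fold change (FC) takes LPS as the reference, and for many genes its standard error (SE) is given after it. As the microglia were sequenced in bulk, fewer cells of a type and less RNA per cell cannot be told apart.

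All 12 microglial markers looked at passed the filter on low counts, and their summed level was 9620, 7835 and 5232 CPM under LPS against 4102, 5014 and 2891 CPM under LPS/siponimod. Csf1r contributed 3051, 2340 and 932 against 636, 1309 and 491 CPM, and Cd68 1421, 1056 and 748 against 1346, 1052 and 831 CPM. Of these 12, Aif1, Itgam and Cx3cr1 were lower DEGs, where 11.7% of all genes tested were, and no microglial marker was a higher DEG. Markers of other cells were also summed, and these sums are compared between conditions only. For 7 astrocyte genes the sums were 42.5, 21.0 and 21.7 against 27.5, 26.8 and 57.7 CPM (mostly Slc1a3), and for 6 neuronal genes 1.67, 1.06 and 11.3 against 6.39, 9.28 and 17.0 CPM (mostly Tubb3). For 7 oligodendrocyte lineage genes they were 5.05, 5.30 and 33.8 against 11.4, 10.3 and 21.3 CPM, mostly Mbp except in LPS replicate 3, where Olig1, Pdgfra and Olig2 had 13.9, 7.64 and 6.46 CPM. For 6 fibroblast and vessel genes they were 42.1, 109 and 22.9 against 15.5, 24.4 and 15.0 CPM, mostly Pecam1 under LPS, while under LPS/siponimod Pecam1 had 3.81, 20.2 and 6.56 CPM and Dcn 9.81, 1.10 and 4.34 CPM. Of the astrocyte, neuronal, oligodendrocyte lineage and fibroblast and vessel genes, 3, 2, 2 and 5 passed the filter. Among those, Mbp, Snap25 and Dcn were higher DEGs, where 13.6% of all genes tested were, and none was a lower DEG. The genes removed by the filter could not be called. Gfap, 1 of them, was at 0 counts in LPS/siponimod replicates 1 and 2. The part of these markers in the results was not tested. LPS replicate 3 stood apart from the other LPS libraries, with 515 counts of Olig1 against 1 and 5, and a correlation of its log2 CPM over genes of 0.935 and 0.945 with replicates 1 and 2, against 0.983 between those. LPS/siponimod replicate 3 likewise had more counts than replicates 1 and 2 of Olig1 (17 against 2 and 3), Olig2 (40 against 1 and 3) and Pdgfra (81 against 1 and 4). Its correlations were 0.966 and 0.956, against 0.973 between the other LPS/siponimod libraries. Results are therefore also given without LPS replicate 3, and counts of DEGs also without LPS/siponimod replicate 3.

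In order to compare the products of both genomes, the counts of the 7 Mt-nd genes and those of the 40 nuclear genes were summed in each library. The Mt-nd sum was 2733, 2573 and 3573 CPM in LPS replicates 1, 2 and 3 and 199, 643 and 621 CPM under LPS/siponimod. The nuclear sum was 1513, 1630 and 1486 CPM under LPS against 1036, 1174 and 1005 CPM under LPS/siponimod. Neither sum overlapped between the conditions, and the Mt-nd sum fell to 0.165 of its LPS mean while the nuclear sum fell to 0.694. The log2 ratio of Mt-nd to nuclear counts was 0.93 ± 0.31 under LPS against -1.31 ± 0.93 under LPS/siponimod (SD, n = 3 each), a difference of -2.24. By pair of same-numbered libraries this difference was -3.23, -1.53 and -1.96, so that it had the same direction in each pair and was widest in pair 1. As these sums run over chosen genes, no p-value is given for them.

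**Figure D1:**
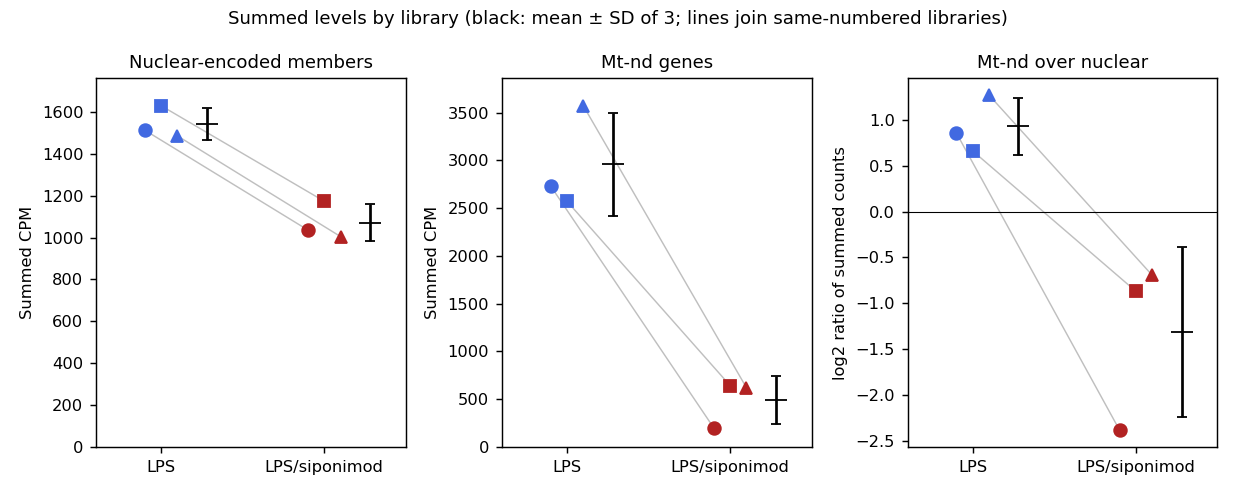
Summed CPM of the 40 nuclear-encoded genes (left), summed CPM of the 7 Mt-nd genes (middle) and the log2 ratio of Mt-nd to nuclear counts (right) in each library, with LPS in blue and LPS/siponimod in red (circle, square and triangle for replicates 1, 2 and 3), grey lines between same-numbered libraries and the mean ± SD of 3 libraries in black. The LPS/siponimod libraries lie below all LPS libraries in each panel, and replicate 1 has the lowest Mt-nd sum (199 CPM) and ratio.

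All 7 mitochondrially encoded subunits had lower levels in each LPS/siponimod library than in any LPS library, which held for 24.0% of all genes tested. In edgeR's test, 6 of these 7 genes were lower DEGs, where 11.7% of all genes tested were, and none was a higher DEG. The fitted log2 FCs spanned -3.92 to -1.46, and their median was -2.80, beside a median of -0.02 over all genes tested. This corresponds to between 2.76-fold and 15.2-fold lower levels. All 7 were lowest in LPS/siponimod replicate 1, and 6 of the 7 were highest in LPS replicate 3.

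ND2, ND4 and ND5 are the antiporter-like subunits of the membrane arm, which are thought to carry protons. Mt-nd4 had 770, 782 and 910 CPM under LPS against 28.2, 87.8 and 116 CPM under LPS/siponimod (log2 FC -3.41 ± 0.52 SE, edgeR adjusted p = 0.00989). Mt-nd2 had 588, 502 and 959 CPM under LPS against 44.6, 118 and 148 CPM under LPS/siponimod (log2 FC -2.72 ± 0.50 SE, edgeR adjusted p = 0.0146). For both genes, each LPS/siponimod library stayed well under the lowest LPS library. Mt-nd5 changed less, with 597, 538 and 588 CPM against 73.7, 273 and 175 CPM (log2 FC -1.72 ± 0.45 SE, edgeR adjusted p = 0.0354). Its LPS libraries were close together while its LPS/siponimod libraries were spread, and its call was lost when any 1 of the 3 LPS replicates or LPS/siponimod replicate 3 was left out (edgeR adjusted p from 0.0539 to 0.107).

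ND1, ND3, ND4L and ND6 lie in the part of the membrane arm next to the ubiquinone site. Mt-nd1 had 366, 333 and 583 CPM under LPS against 26.7, 62.4 and 94.6 CPM under LPS/siponimod (log2 FC -2.80 ± 0.50 SE, edgeR adjusted p = 0.0136). Mt-nd3 had 184, 200 and 281 CPM under LPS against 4.26, 15.3 and 24.3 CPM under LPS/siponimod, the largest fitted change of the 7 (log2 FC -3.92 ± 0.64 SE, edgeR adjusted p = 0.0112). Its raw counts fell from 6817, 7721 and 10449 to 198, 683 and 996, so that the lowest value still rests on 198 reads. Mt-nd4l, whose transcript is joined to that of Mt-nd4, had 86.1, 94.4 and 97.3 CPM against 2.20, 9.59 and 7.05 CPM (log2 FC -3.88 ± 0.53 SE, edgeR adjusted p = 0.00791). Mt-nd6 had 142, 122 and 154 CPM under LPS against 19.5, 76.2 and 56.0 CPM under LPS/siponimod, a log2 FC of -1.46 (SE 0.47) that did not pass the test (edgeR adjusted p = 0.0595). The replicates carry the same numbers in both conditions and varied together over all genes. After blocking on the replicate number, Mt-nd6 was a lower DEG (log2 FC -1.66, edgeR adjusted p = 0.0400), as it was without LPS/siponimod replicate 2 (edgeR adjusted p = 0.0430). With the block all 7 Mt-nd genes passed, where 16.4% of all genes were lower DEGs. Without LPS replicate 3, 5 of the 7 did (14.5% of all genes), with a median log2 FC of -2.51. Without LPS replicate 2 only Mt-nd3, Mt-nd4 and Mt-nd4l passed, where 1.44% of all genes were lower DEGs, as Mt-nd1 and Mt-nd2 then had an edgeR adjusted p of 0.0515 each.

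Mt-nd6 is the only one of the 7 genes that is encoded on the other strand, and it lies opposite the stretch that follows the coding part of Mt-nd5. The sources used here do not state whether strand was used for counting or how reads that match several places were treated. Reads from Mt-nd6 and from its opposite strand therefore cannot be told apart, nor can reads from mitochondrial DNA and from its copies in nuclear chromosomes. The study's methods also name an mRNA capture step before the libraries were made. How well each mitochondrial mRNA was captured was not tested. Mt-nd5 and Mt-nd6 were the 2 Mt-nd genes with the smallest changes, and their share among the counts of the 13 mitochondrial mRNAs overlapped between conditions. The share of Mt-nd5 was 3.87% ± 0.22 under LPS against 3.41% ± 1.14 under LPS/siponimod (SD, n = 3 each), and that of Mt-nd6 was 0.939% ± 0.111 and 0.982% ± 0.337. By contrast, the share of Mt-nd4 was 5.56% ± 0.81 against 1.51% ± 0.63, and that of Mt-nd3 1.51% ± 0.41 against 0.282% ± 0.159, without overlap.

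**Figure D2:**
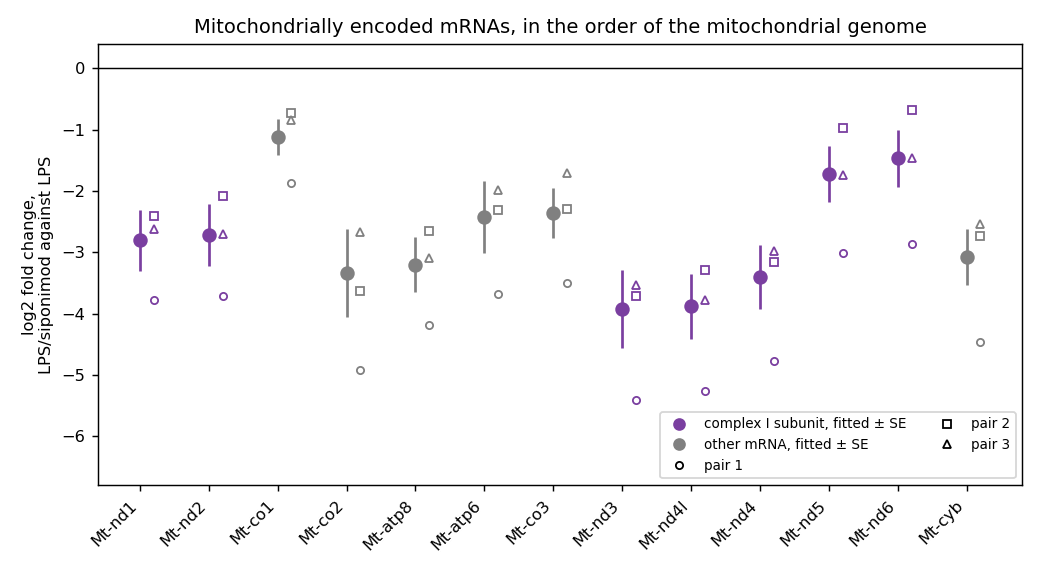
Fitted log2 FC (LPS/siponimod against LPS, filled points ± standard error) and the difference of log2 CPM within each pair of same-numbered libraries (open symbols) for the 13 mitochondrially encoded mRNAs in their order along the mitochondrial genome, with complex I subunits in purple and the others in grey. All 13 lie below 0, Mt-nd3 and Mt-nd4l lowest at -3.92 and -3.88, with Mt-co1, Mt-nd6 and Mt-nd5 nearest to 0, and pair 1 has the lowest value for each gene.

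The fall was not limited to complex I genes of the mitochondrial genome. The 6 other mRNAs of this genome, for subunits of complexes III, IV and V, were all lower DEGs, against 11.7% of all genes tested. Their median log2 FC was -2.75, with a range from -3.34 to -1.12. Mt-cyb, the subunit of complex III, went from 1212 ± 130 to 143 ± 71.7 CPM (mean ± SD, n = 3; log2 FC -3.08 ± 0.46 SE, edgeR adjusted p = 0.00932), and Mt-atp8 of complex V from 84.7 ± 22.7 to 9.19 ± 4.44 CPM (log2 FC -3.21 ± 0.45 SE, edgeR adjusted p = 0.00825). Mt-co3 had a log2 FC of -2.36 (SE 0.41, edgeR adjusted p = 0.0131), and its call was lost without LPS replicate 2 (edgeR adjusted p = 0.0551). The share of the 7 Mt-nd genes in the counts of all 13 was 16.7%, 18.7% and 24.7% under LPS against 6.35%, 10.9% and 11.6% under LPS/siponimod, without overlap. Mt-co1, chosen after its values were seen, took 60.2%, 57.2% and 48.1% of these counts under LPS and 86.2%, 80.1% and 72.4% under LPS/siponimod. Together the 13 mRNAs made up 1.54%, 1.39% and 1.41% of all counts under LPS but 0.313%, 0.610% and 0.568% under LPS/siponimod. Library sizes and TMM factors computed without these genes left the median log2 FC of the Mt-nd genes at -2.80.

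Of the 40 nuclear genes, 38 passed the filter on low counts, and their median change was smaller than that of the Mt-nd genes. The ranges of single genes overlapped, as Ndufv3-ps1 had a log2 FC of -1.96 and Mt-nd6 of -1.46. Among the 38, edgeR called 17 as lower DEGs, against 11.7% of all genes tested, and 0 were higher DEGs, against 13.6% (25.3% for either direction). The median log2 FC was -0.52, a level 1.43-fold lower with LPS/siponimod, and 35 of the 38 had a negative log2 FC, against 51.2% of all genes tested. In 28 of the 38 all 3 LPS/siponimod libraries lay below all LPS libraries, against the same 24.0%, and in 0 they lay above, which held for 25.3%. Pair by pair, the nuclear median was -0.51, -0.46 and -0.58. A further 6 genes passed an edgeR adjusted p of 0.05 but changed by less than 1.5-fold, and 15 did not pass 0.05. The number of DEGs depended on single libraries, with 5 of 38 without LPS replicate 2 or without LPS/siponimod replicate 1, where 1.44% and 1.52% of all genes tested were lower DEGs, 7 without LPS/siponimod replicate 3 (2.24%) and 9 without LPS replicate 1 (5.13%), while the median stayed between -0.61 and -0.46 in all 6 fits that left out 1 library. Without LPS replicate 3, 17 of the 38 were lower DEGs, as were 14.5% of all genes tested in that fit.

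**Figure D3:**
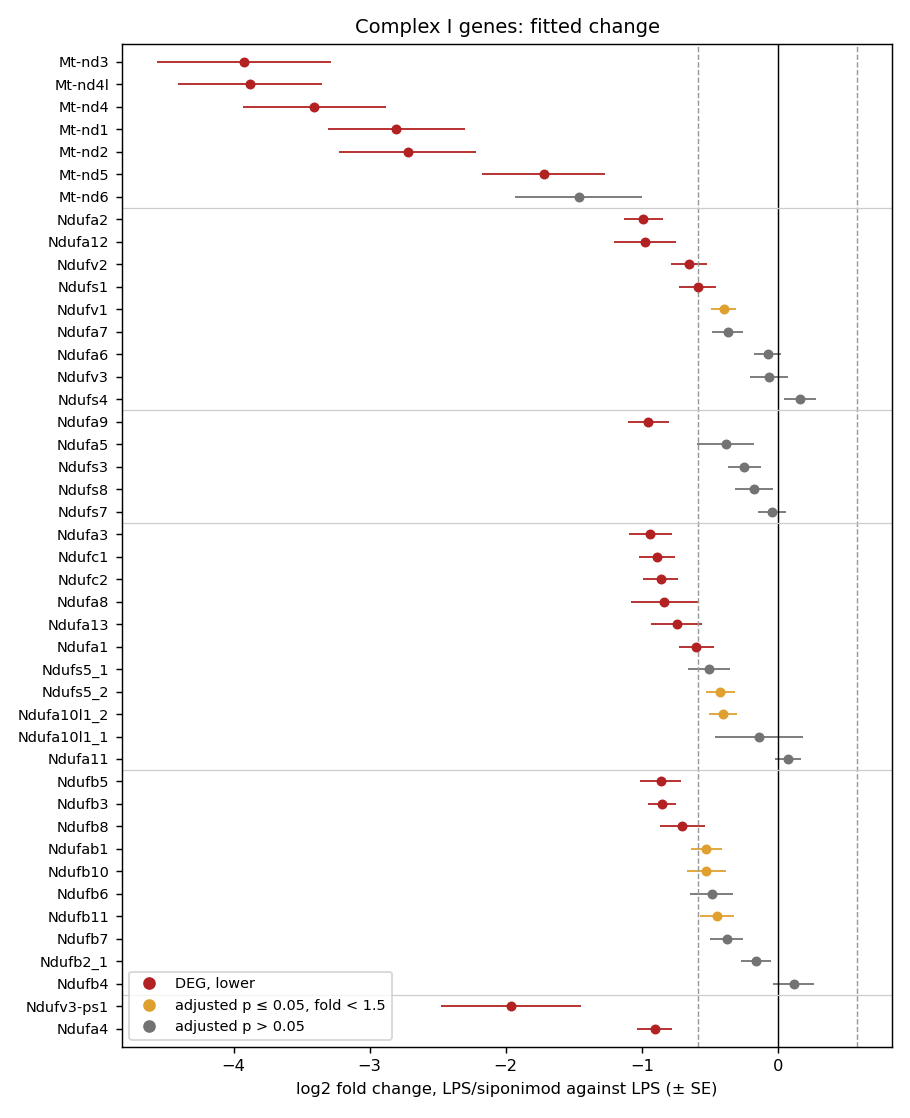
Fitted log2 FC (LPS/siponimod against LPS, ± standard error) of 44 complex I genes tested, from top to bottom the Mt-nd genes, the N module, the Q module, the proximal and the distal membrane arm and 2 genes taken by name only, sorted within each. Lower DEGs are red, genes past the adjusted p but under 1.5-fold orange and others grey, and dashed lines mark 1.5-fold. Nuclear genes shown lie near or between -1 and 0, apart from Ndufv3-ps1 at -1.96, while the Mt-nd genes lie between -3.92 and -1.46.

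The 7 nuclear core subunits carry the path of electrons from NADH to ubiquinone. Of these, 3 were lower DEGs (Ndufs1 and Ndufv2 among them), against 11.7% of all genes tested. Ndufv1, which binds NADH and the flavin, had 60.4, 62.2 and 59.6 CPM under LPS against 45.4, 47.9 and 44.9 CPM under LPS/siponimod (log2 FC -0.40 ± 0.09 SE, edgeR adjusted p = 0.0275). The libraries of each condition were close together and did not overlap with the others, although the change was under 1.5-fold. Its iron-sulfur partner Ndufv2 fell from 39.9, 42.3 and 38.4 CPM to 24.4, 29.2 and 23.0 CPM (log2 FC -0.65 ± 0.13 SE, edgeR adjusted p = 0.0175). Ndufs1, which holds further iron-sulfur clusters, had 58.3, 73.3 and 59.3 CPM against 39.8, 46.4 and 40.9 CPM (log2 FC -0.59 ± 0.14 SE, edgeR adjusted p = 0.0261). Its change lay just past 1.5-fold, and with the replicate block it fell just short of it (log2 FC -0.58, adjusted p = 0.0149). Thus, these 3 genes of the N module did not overlap between conditions. The calls of Ndufv2 and Ndufs1 were lost without LPS replicate 1, LPS replicate 2, LPS/siponimod replicate 1 or LPS/siponimod replicate 3 (edgeR adjusted p from 0.0523 to 0.114).

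Core subunits of the Q module pass the electrons on to ubiquinone, and the 3 described here gave no call. Ndufs7, whose cluster hands electrons to ubiquinone, had 42.1, 42.8 and 40.6 CPM against 37.9, 41.3 and 42.6 CPM, with overlap (log2 FC -0.04 ± 0.10 SE, edgeR adjusted p = 0.768). Ndufs3 had 25.7, 26.4 and 22.0 CPM against 20.8, 20.4 and 21.3 CPM (log2 FC -0.25 ± 0.12 SE, edgeR adjusted p = 0.171), and Ndufs8, an iron-sulfur subunit, had a log2 FC of -0.17 (SE 0.14, edgeR adjusted p = 0.372).

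By module, 4 of 9 genes of the N module, 2 of 6 of the Q module, 6 of 11 of the proximal membrane arm and 3 of 10 of the distal membrane arm were lower DEGs, with median log2 FCs of -0.40, -0.32, -0.60 and -0.51, beside 11.7% lower DEGs and a median of -0.02 over all genes tested. The modules were not tested against each other. Accessory subunits surround the core and serve its assembly and stability, and 12 of the 29 tested were lower DEGs, against the same 11.7%, with a median of -0.50. Ndufb3 of the distal membrane arm had the smallest adjusted p of all members, with 39.1, 43.0 and 43.4 CPM against 22.4, 24.2 and 22.9 CPM (log2 FC -0.85 ± 0.10 SE, edgeR adjusted p = 0.00703). Ndufa2, a thioredoxin-like subunit of the N module, had 39.0, 44.1 and 37.0 CPM against 18.6, 23.3 and 18.6 CPM (log2 FC -0.99 ± 0.14 SE, edgeR adjusted p = 0.00886). Both genes were DEGs in all 6 fits that left out 1 library.

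Ndufc1 and Ndufc2 encode small neighbouring subunits of the membrane arm. Ndufc1 had 18.5, 18.0 and 18.0 CPM under LPS against 9.10, 10.8 and 9.59 CPM under LPS/siponimod (log2 FC -0.89 ± 0.13 SE, edgeR adjusted p = 0.00953). Ndufc2 had 52.5, 55.1 and 55.2 CPM against 28.9, 34.1 and 26.6 CPM (log2 FC -0.86 ± 0.13 SE, edgeR adjusted p = 0.00896). Their LPS libraries were nearly equal, and none of their LPS/siponimod libraries came near them. Ndufa9, a subunit at the joint of both arms, fell from 84.7, 97.7 and 88.5 CPM to 44.1, 55.3 and 40.5 CPM (log2 FC -0.95 ± 0.15 SE, edgeR adjusted p = 0.0106). Ndufa3 and Ndufb5 of the membrane arm were likewise lower DEGs (log2 FC -0.94 and -0.86, edgeR adjusted p = 0.0117 and 0.0134). Ndufab1, the mitochondrial acyl carrier protein, which also serves fatty acid and lipoic acid synthesis, had 25.4, 27.1 and 27.8 CPM against 18.5, 19.5 and 17.8 CPM and stayed under 1.5-fold (log2 FC -0.53 ± 0.11 SE, edgeR adjusted p = 0.0208). The other lower DEGs among the subunits were Ndufa1, Ndufa8, Ndufa12, Ndufa13 and Ndufb8, with log2 FCs from -0.98 to -0.60. With each library left out in turn, Ndufa1, Ndufa12, Ndufa13 and Ndufb8 were DEGs in only 2 of 6 fits, and Ndufa8 in 1. The call of Ndufc1 was lost without LPS replicate 2, that of Ndufc2 without LPS/siponimod replicate 1, that of Ndufa9 without either of these, and those of Ndufa3 and Ndufb5 without either of these or LPS/siponimod replicate 3 (edgeR adjusted p from 0.0511 to 0.0686).

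Only 3 nuclear members had a positive log2 FC, and none passed the test. Ndufs4, an accessory subunit needed for a stable N module, had 31.0, 36.1 and 30.3 CPM under LPS against 34.7, 38.4 and 36.0 CPM under LPS/siponimod (log2 FC 0.16 ± 0.12 SE, edgeR adjusted p = 0.318). Ndufb4 had 15.8, 18.1 and 15.7 CPM against 18.2, 15.5 and 20.1 CPM (log2 FC 0.12 ± 0.15 SE, edgeR adjusted p = 0.584). Ndufa11 had 38.8, 40.4 and 41.7 CPM against 43.3, 40.3 and 43.7 CPM (log2 FC 0.08 ± 0.10 SE, edgeR adjusted p = 0.588). In each of these genes the conditions overlapped, and Ndufs4 alone was higher in all 3 pairs of same-numbered libraries.

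Genes that share a name or sequence are less certain, since their reads may have been divided between loci. Of both loci named Ndufs5, the one numbered 1 had a fitted log2 FC of -0.50 (edgeR adjusted p = 0.0536) and that numbered 2 of -0.42 (0.0324), while of both loci named Ndufa10l1 the values were -0.14 (0.766) and -0.40 (0.0348). Ndufb2_2 had 0 counts in each library, which allows up to 3 counts or between 0.0646 and 0.0810 CPM, and Ndufa4l2 had 0, 0 and 2 counts under LPS and 0, 1 and 2 with LPS/siponimod. These 2 genes were removed by the filter, and Ndufa4l2 lay at or under the floor of 3 counts in all libraries. Ndufa4, the complex IV subunit, had 61.1, 67.3 and 76.4 CPM against 33.6, 38.3 and 37.4 CPM (log2 FC -0.91 ± 0.13 SE, edgeR adjusted p = 0.00825). The pseudogene Ndufv3-ps1 had 118, 204 and 176 counts against 26, 87 and 36 (log2 FC -1.96 ± 0.51 SE, edgeR adjusted p = 0.0351), whereas its parent Ndufv3 gave no call (log2 FC -0.06, edgeR adjusted p = 0.756). The call of the pseudogene was lost when any 1 library but LPS/siponimod replicate 2 was left out (edgeR adjusted p from 0.0539 to 0.127). Without the genes taken by name only, 15 of 36 nuclear genes were lower DEGs, against 11.7% of all genes tested. Their median log2 FC was -0.50, beside -0.02 over all genes tested.

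**Figure D4:**
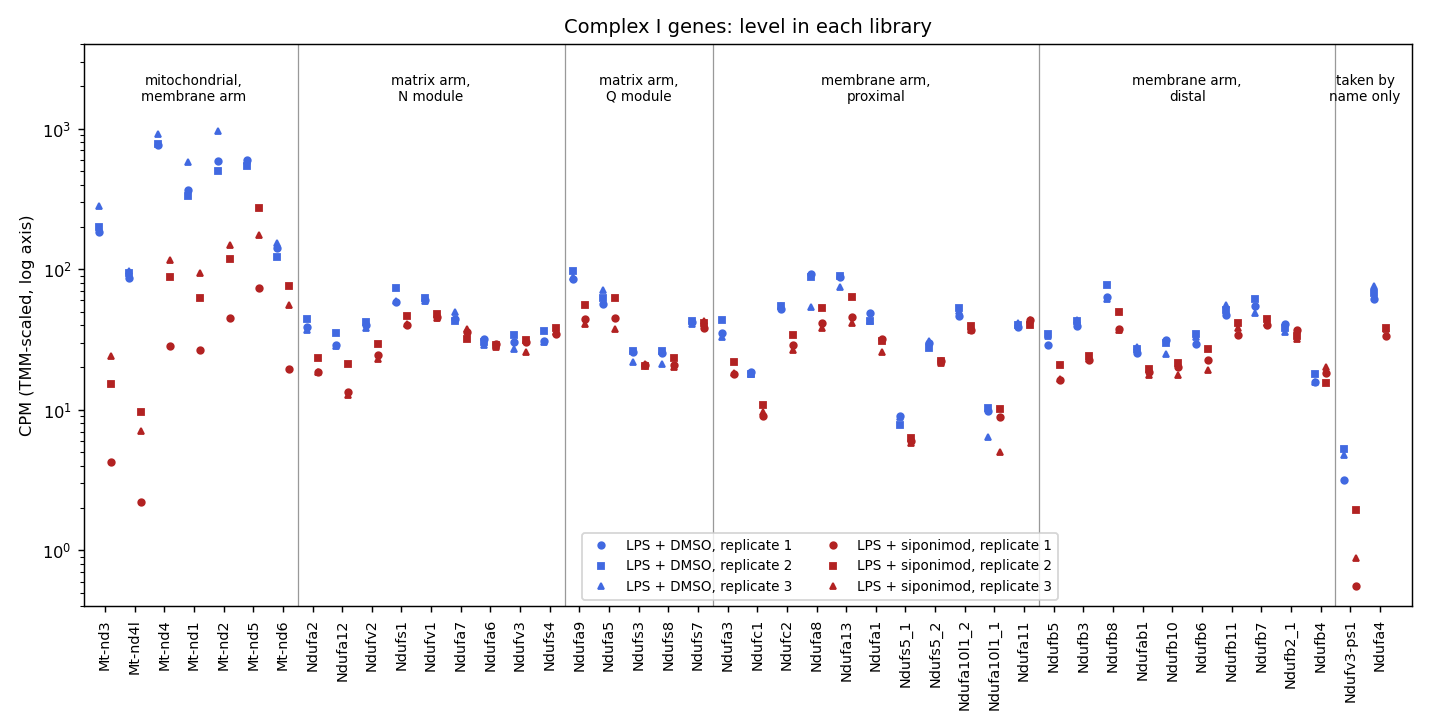
CPM (log axis) of 44 complex I genes tested in each library, grouped by position in the complex and sorted within each group by log2 FC, with LPS in blue and LPS/siponimod in red and circles, squares and triangles for replicates 1, 2 and 3. Among the Mt-nd genes all red symbols lie below the blue ones with replicate 1 lowest, and among the nuclear genes Ndufc1 lies at 18.0 to 18.5 CPM under LPS and 9.10 to 10.8 CPM under LPS/siponimod.

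The spread between libraries was compared as a median over genes. Over the 7 Mt-nd genes the median coefficient of variation was 11.6% under LPS against 57.3% under LPS/siponimod. Over the 38 nuclear genes it was 8.77% and 9.63%. Under LPS, the values of single genes overlapped between the genomes. Under LPS/siponimod, the Mt-nd genes had 51.4% to 68.6%, and of the nuclear genes only the pseudogene Ndufv3-ps1 (64.5%) lay in that range. The next highest nuclear value was 33.0% (Ndufa10l1_1). Among the LPS/siponimod libraries, replicate 1 was the lowest for 7 of 7 Mt-nd genes, whereas replicate 2 was the highest for 29 of 38 nuclear genes and replicate 3 the lowest for 20. Accordingly, the median difference within pairs went from -3.78 in pair 1 to -2.41 in pair 2 and -2.69 in pair 3 for Mt-nd genes, while the nuclear medians differed by little. Within each pair the Mt-nd median was lower than the nuclear one, with differences of -3.26, -1.96 and -2.11 on the log2 scale.

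Since many nuclear members were lower together, the promoters of the 30 nuclear members that were tested, had 1 locus and were found by symbol in the RefSeq table (assembly GRCr8, not the assembly used for mapping) were searched on both strands. The window runs from 250 bases before to 50 bases after the annotated start. NRF1, the ETS factor GABP and YY1 are known regulators of genes for mitochondrial proteins. The letters for NRF1, GCGCA and GCGC with any 1 base N between them, were found in 5 of the 30 promoters (16.7%, against 4.25% of all 33469 promoters in the table), CCGGAAG for ETS factors in 7 (23.3%, against 8.75%) and AAGATGGCG for YY1 in 6 (20.0%, against 1.73%). TGATGNAA, letters for ATF4, were found in 0 of the 30 and in 3.98% of all promoters, a share too low for 0 of 30 to show a difference. Each member entered with 1 promoter, while the set of all promoters was not limited to 1 per gene or to genes tested here. The median GC content was 56.2% in the 30 promoters and 51.7% in all. Among the 14 promoters of lower DEGs these numbers were 1, 4, 3 and 0, and among the 16 others 4, 3, 3 and 0, so that each of the first 3 motifs was found in promoters of genes with and without a call. Overlaps between motifs were not counted.

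The following 4 promoters are shown because each motif is held by a gene that fell and by a gene with a positive log2 FC, and capitals mark the motif, which is the only match of the searched letters in each. The NRF1 letters are shown in Ndufa12 (log2 FC -0.98, edgeR adjusted p = 0.0273; chr7:30658066-30658365, plus strand) and in Ndufb4 (log2 FC 0.12; chr11:76568928-76569227, plus strand). The YY1 letters are shown in Ndufa9 (log2 FC -0.95; chr4:161374121-161374420, minus strand) and in Ndufs4 (log2 FC 0.16; chr2:47794865-47795164, minus strand). In Ndufa12 the match is on the strand opposite to the one printed, so that the capitals read as its reverse complement, and it begins 112 bases before the start, and in Ndufb4, Ndufa9 and Ndufs4 it is on the printed strand, at bases 3, 11 and 5 after it.
Ndufa12: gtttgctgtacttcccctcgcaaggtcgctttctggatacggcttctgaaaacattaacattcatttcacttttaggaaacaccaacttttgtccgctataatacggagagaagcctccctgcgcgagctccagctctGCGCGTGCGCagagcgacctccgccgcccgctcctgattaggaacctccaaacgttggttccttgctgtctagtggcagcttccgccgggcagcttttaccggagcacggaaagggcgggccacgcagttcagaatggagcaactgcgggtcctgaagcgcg
Ndufb4: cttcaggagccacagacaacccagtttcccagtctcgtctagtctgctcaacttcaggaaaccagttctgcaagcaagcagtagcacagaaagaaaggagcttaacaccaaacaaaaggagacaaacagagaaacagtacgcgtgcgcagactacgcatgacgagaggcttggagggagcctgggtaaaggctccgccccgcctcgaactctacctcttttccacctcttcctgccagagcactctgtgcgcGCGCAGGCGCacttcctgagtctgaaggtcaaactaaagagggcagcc
Ndufa9: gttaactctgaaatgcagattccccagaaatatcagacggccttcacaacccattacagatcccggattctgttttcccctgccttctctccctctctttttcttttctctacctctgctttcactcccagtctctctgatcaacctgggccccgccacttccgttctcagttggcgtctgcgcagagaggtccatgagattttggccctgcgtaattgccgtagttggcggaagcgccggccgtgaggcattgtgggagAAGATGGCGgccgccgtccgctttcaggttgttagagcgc
Ndufs4: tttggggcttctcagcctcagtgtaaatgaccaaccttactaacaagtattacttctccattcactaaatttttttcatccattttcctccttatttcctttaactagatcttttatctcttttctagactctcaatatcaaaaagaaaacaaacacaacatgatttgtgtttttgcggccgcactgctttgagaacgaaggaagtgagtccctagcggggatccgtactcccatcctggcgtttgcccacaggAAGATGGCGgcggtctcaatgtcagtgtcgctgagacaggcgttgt

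Among genes that serve complex I from outside, few were called. Of 18 assembly factors tested, 1 was a lower and 3 were higher DEGs, near the shares of 11.7% and 13.6% of all genes tested, and the median log2 FC was -0.08. Ndufaf4, which acts early in assembly, had 7.43 ± 0.87 CPM under LPS against 14.9 ± 3.26 CPM under LPS/siponimod (mean ± SD, n = 3; log2 FC 1.01 ± 0.21 SE, edgeR adjusted p = 0.0205). Chchd4, of the import pathway of the intermembrane space, rose from 15.3 ± 4.20 to 29.5 ± 6.91 CPM (log2 FC 0.94, edgeR adjusted p = 0.0403), and Ndufaf5, which modifies Ndufs7, from 8.70 ± 1.04 to 15.8 ± 4.65 CPM (log2 FC 0.86, edgeR adjusted p = 0.0426). Ndufaf7, a methyltransferase, fell from 12.4 ± 5.21 to 5.38 ± 0.40 CPM (log2 FC -1.21, edgeR adjusted p = 0.0457), a call that was lost with the replicate block (-1.12, adjusted p = 0.0553). Tmem70 (log2 FC -1.12, edgeR adjusted p = 0.0540) was a lower DEG with the block (edgeR adjusted p = 0.0354) and without LPS replicate 3 (log2 FC -1.33, edgeR adjusted p = 0.0273), and Ndufaf1 had a fitted log2 FC of -0.59 (edgeR adjusted p = 0.0684). All 4 calls of assembly factors were lost without LPS replicate 1, LPS replicate 2, LPS/siponimod replicate 1 or LPS/siponimod replicate 3, that of Ndufaf5 also without LPS replicate 3 and that of Ndufaf7 also without LPS/siponimod replicate 2 (edgeR adjusted p from 0.0513 to 0.158).

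Of 14 regulators of mitochondrial genes tested, 1 was a lower and 1 a higher DEG, below the same shares of all genes, and the median log2 FC was 0.12. Slirp, which with Lrpprc stabilizes mitochondrial mRNAs, fell from 19.9 ± 2.45 to 10.6 ± 1.14 CPM (mean ± SD, n = 3; log2 FC -0.91 ± 0.16 SE, edgeR adjusted p = 0.0134). Gabpb1, a subunit of GABP, rose from 19.9 ± 6.82 to 43.4 ± 4.26 CPM (log2 FC 1.12 ± 0.25 SE, edgeR adjusted p = 0.0248). Esrra, Tefm, Yy1 and Tfb2m had log2 FCs of -0.68, -0.61, 0.28 and 0.47 and gave no call (edgeR adjusted p from 0.0707 to 0.108). Without LPS replicate 3, Tfb2m was a higher DEG (log2 FC 0.63, edgeR adjusted p = 0.0360), and Esrra had a log2 FC of -0.40 (edgeR adjusted p = 0.0624). The calls of Slirp and Gabpb1 were lost without LPS replicate 2, LPS/siponimod replicate 1 or LPS/siponimod replicate 3, and that of Gabpb1 also without LPS replicate 1 (edgeR adjusted p from 0.0507 to 0.0884).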

How the data were processed

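Single-end reads were demultiplexed with bcl2fastq (version 2.20.0.422 per the labels), trimmed and mapped by the authors to the rat genome (mRatBN7.2 per the labels) in the CLC Genomics Workbench. The deposited values are raw total counts per gene and library, without normalization. The rules for strand and for reads that match several places are not given in the sources used here. In 1 library 1 row without name and value, with 0% of the counts, was left out. Counts were analysed in R 4.3.3 with edgeR 4.0.16, with limma 3.58.1 and DESeq2 1.42.0 as alternatives. Genes were kept by filterByExpr (minimum count 10, minimum total 15), which left 11977 of 23139, scaled by TMM (factors from 0.939 to 1.06) and tested with glmQLFTest (design with condition alone) and Benjamini-Hochberg adjustment over all genes tested. The standard error is the log2 FC divided by the square root of F. Differences within pairs were taken between log2 CPM values (prior count 2). A count of 0 allows up to 3 counts, and such limits cover counting error only. The study's methods call the libraries biological replicates, but the sources used here do not say which animals or cultures each came from, and p-values measure the spread between these libraries. A single gene cannot reach an exact permutation p below 0.10 with 3 against 3 libraries.

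Members, gene lists and motifs were chosen with earlier results of these data known. Named were the Mt-nd genes, the nuclear core subunits, of the other members up to 8 with the smallest p in each direction, members removed by the filter or taken by name only, and of the lists of assembly factors, other mitochondrial mRNAs and regulators up to 3 per direction. A nuclear member that is in the counts, sums and medians is not reported here by itself or drawn by gene. Other names, Ndufa12 and the markers among them, were added after values were seen. Centred on group means, same-numbered libraries correlated over genes at 0.42, 0.545 and 0.611 and others at 0.0856 or less, so that the numbers were taken as pairs on this evidence alone, and a replicate block was fitted as an alternative. The other alternatives were the likelihood ratio test, DESeq2, limma-voom, RLE factors, scaling without mitochondrially encoded genes, other filters and each library left out.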

Additional observations from a re-analysis of the deposited data

How the results depend on the processing

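With each library left out in turn, the number of nuclear genes that were lower DEGs ranged from 5 to 18, that of Mt-nd genes from 3 to 7 and that of all DEGs from 651 to 3713. The share of all genes tested that were lower DEGs ranged from 1.44% to 14.5%. The median log2 FC of the nuclear genes ranged from -0.61 to -0.46 in these fits, that of the Mt-nd genes from -3.26 to -2.45 and their difference from -2.80 to -1.93. The low counts came without LPS replicate 2 (5 nuclear and 3 Mt-nd genes), LPS/siponimod replicate 1 (5 and 6), LPS/siponimod replicate 3 (7 and 5) and LPS replicate 1 (9 and 5), fits with 1 library fewer. Under the other alternatives (likelihood ratio test, DESeq2, limma-voom, RLE factors, scaling without mitochondrially encoded genes, no filter beyond 1 count, a mean of at least 1 CPM and the replicate block) between 15 and 17 nuclear and 6 or 7 Mt-nd genes were lower DEGs, none was a higher one, and the difference of the medians lay between -2.43 and -2.29. In those fits between 6.53% (no filter beyond 1 count) and 16.4% (replicate block) of all genes tested were lower DEGs. With the replicate block, 16 nuclear and 7 Mt-nd genes and 16.4% of all genes were lower DEGs, all of the 16 and 6 of the 7 also being called without it, and the calls of Mt-nd6, Ndufs1, Ndufaf7 and Tmem70 changed among the genes named by rule. Among these genes, calls were also gained by Mt-nd6 (likelihood ratio test, DESeq2 and limma-voom), Tmem70 and Esrra (likelihood ratio test and DESeq2), Tefm and Ndufaf1 (DESeq2), and lost by Ndufs1 (limma-voom), Ndufaf7 and Ndufaf5 (limma-voom and no filter) and Chchd4 (no filter), with adjusted p-values of the lost calls from 0.0268, at a fold just under 1.5, to 0.0750. Leaving out genes taken by name only, an alternative added after the data were seen, gave 15 lower DEGs of 36 nuclear genes, against 11.7% of all genes tested. No tested gene named by rule changed its direction under any of these alternatives. Among the other members, Ndufa10l1_1 and Ndufv3 did, with log2 FCs of up to 0.11 and 0.04 in fits that left out 1 library. At 3 libraries per condition, a change under 1.5-fold was not called by definition, and a gene without a call is not shown to be unchanged.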
